A study of Rattus norvegicus with 6 samples.

Results

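Each muscle contraction begins with a pulse of calcium from the sarcoplasmic reticulum, and the muscle relaxes once that calcium has been taken back. The SERCA pumps return calcium from the cytosol to the lumen of the reticulum at the cost of ATP, and the small membrane proteins phospholamban and sarcolipin restrain them. Calsequestrin and other proteins of the lumen hold the stored calcium, while parvalbumin binds calcium in the cytosol and helps fast fibers to relax. Slow fibers and heart carry mostly SERCA2, and fast fibers carry SERCA1. Calsequestrin 2 is found in heart and slow fibers, and calsequestrin 1 is at a higher level in fast fibers without being confined to them. The genes examined here were the 10 that encode these proteins: the pumps Atp2a1, Atp2a2 and Atp2a3, the pump inhibitors Pln and Sln, the lumenal proteins Casq1, Casq2, Hrc and Srl, and the buffer Pvalb. They were found by symbol among the 26406 genes listed, and each had a single row.

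The RNA came from gastrocnemius, a mixed muscle of the calf, of 6 male Sprague Dawley rats (Crl:SD), all fitted with venous and arterial catheters. The 3 vehicle rats (rats 3, 9 and 11; 356 to 382 g) received the carrier by vein, and the 3 olanzapine rats (rats 4, 10 and 12; 366 to 400 g) received the antipsychotic olanzapine for 24 h, as 1 mg per 100 g body weight over 0.5 h followed by 0.04 mg per 100 g per hour over 23.5 h. Ages were not given in the sources used here. Values are FPKM, sequenced fragments scaled to transcript length and to library size, so levels of different genes are compared per length. From the spacing of the lowest values, depth in the other 5 rats was 0.440 to 0.918 of that in vehicle rat 3, with the absolute number of reads unknown. The groups were compared with limma on log2(FPKM + 1) over the 10285 genes whose mean reached 1 FPKM, Benjamini-Hochberg adjusted over all of them, and all 10 genes passed this filter. The median log2 fold change of the tested genes was -0.11, or 0.03 after scaling by median-ratio size factors, and fold changes of low genes are understated on this scale.

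In the olanzapine rats 3 of the 10 genes fell, 7 did not pass the test and none rose. Over all tested genes 0.506% passed, 0.457% as falls and 0.0486% as rises. At an unadjusted p under 0.05 in limma 3 were higher and 3 lower, where 13.2% of all tested genes reached that level. The falls were of Atp2a2, Casq2 and Sln, with group means 4.95 to 7.06-fold lower. The count of 3 was 1 without vehicle rat 3, vehicle rat 9 or olanzapine rat 12, and Casq2 was the gene that passed in each of those fits. Without overlap between the groups were 3 genes that were higher (Pln, Casq1 and Pvalb), against 5.12% of all tested genes, and 3 that were lower, against 14.6%, or 19.7% in either direction. The median log2 fold change of the 10 genes was -0.01, and the pumps, inhibitors and stores each held members on both sides of 0.

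Markers of fiber type were read beside these genes, in lists chosen with earlier results of these data known. The study, with another test, had already reported the slow markers among them as lower in these same rats. It had reported the fast markers as higher except for Myh1, which was lower. Among the 10 genes it had reported Atp2a1, Casq1 and Pvalb as higher and Atp2a2 and Casq2 as lower. For Pvalb, Atp2a2 and Casq2 it had found the same direction by quantitative PCR on the same RNA. Of 8 slow fiber markers outside the 10 genes (Myh7, Tnnt1, Tnni1, Tnnc1, Myl2, Myl3, Tpm3 and Myoz2), 7 fell and none was at 0 in any rat. Their summed level was 18094 to 33214 FPKM in the vehicle rats, against 2762 to 7074 FPKM in the olanzapine rats, where rat 4 was the highest, as it was for Atp2a2, Sln and Casq2. Of 8 fast fiber markers (Myh4, Myh1, Actn3, Tnnt3, Tnni2, Tnnc2, Mylpf and Myl1) none passed the test. At an unadjusted p under 0.05 limma gave 4 higher, against 3.79% of all tested genes, and 1 lower, against 9.45%. The lower marker was Myh1, without overlap between the groups (log2 fold change -0.65, limma adjusted p = 0.25). The summed level of the 8 fast markers was 56586 to 72131 FPKM in the vehicle rats, against 94460.0 to 128380.0 FPKM in the olanzapine rats. In bulk muscle, fewer slow fibers and less slow RNA per fiber cannot be told apart.

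**Figure D1:**
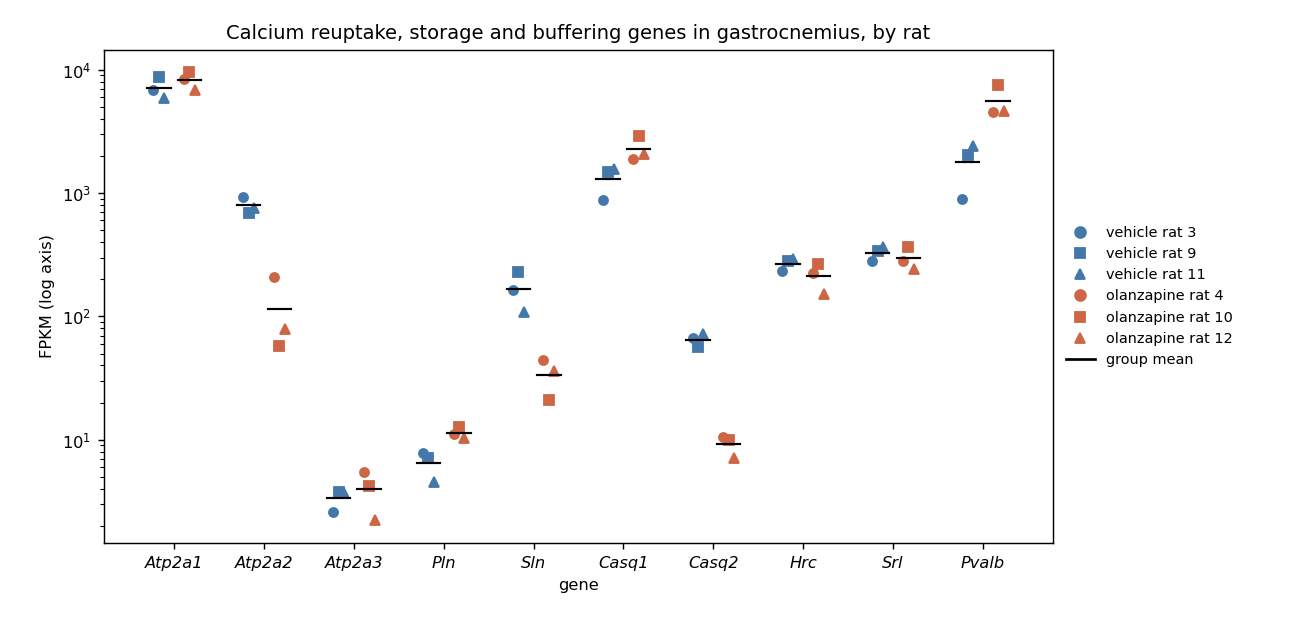
FPKM of the 10 genes in each rat on a log axis, vehicle rats in blue and olanzapine rats in orange, with a bar at the group mean. Atp2a2, Sln and Casq2 have every olanzapine rat below every vehicle rat, Pln, Casq1 and Pvalb have every olanzapine rat above, and the other 4 genes overlap.

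Atp2a2 (ENSRNOG00000001285, chr12:41435156-41482924 of Rn5) encodes SERCA2, the pump of slow fibers and heart. It measured 928, 691 and 758 FPKM in vehicle rats 3, 9 and 11, against 210.3, 57.5 and 78.3 FPKM in olanzapine rats 4, 10 and 12. All olanzapine rats lay below all vehicle rats, and olanzapine rat 4 kept the highest level of its group. The mean was 6.87-fold lower, at 793 ± 122 FPKM (SD, n = 3) in the vehicle group and 115 ± 82.8 FPKM (SD, n = 3) in the olanzapine group. The log2 fold change of -2.99 had a standard error of 0.42 and a 95% interval from -3.95 to -2.02 (limma, adjusted p = 0.0279). Its call was lost without any of the vehicle rats, without olanzapine rat 12 and where low values were not filtered (adjusted p = 0.0618 to 0.164 in these limma fits).

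Atp2a1 (ENSRNOG00000047124, chr1:204836392-204854008) encodes SERCA1, the pump of fast fibers, and was the most abundant of the 10 genes. Vehicle rats 3, 9 and 11 had 6822, 8674 and 5919 FPKM, and olanzapine rats 4, 10 and 12 had 8458, 9515 and 6879.6 FPKM. The groups overlapped, with means of 7138 ± 1404 and 8284 ± 1326 FPKM (SD, n = 3 each). The log2 fold change of 0.22 had a 95% interval from -0.35 to 0.79 (limma, adjusted p = 0.698), so a loss of the size seen in Atp2a2 lay outside it. An end of its locus overlaps that of Rabep2, which is listed at 0 in all rats.

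Atp2a3 (ENSRNOG00000017912, chr10:59269278-59299899) encodes SERCA3, a pump known mainly from platelets, leukocytes and endothelium. It was the least abundant of the 10 genes, at 2.58, 3.78 and 3.73 FPKM in the vehicle rats, against 5.51, 4.20 and 2.22 FPKM in the olanzapine rats. The groups overlapped, and the log2 fold change of 0.14 (95% interval -0.49 to 0.77, limma adjusted p = 0.839) was -0.082 without olanzapine rat 4. The summed level of 5 endothelial markers lay between 65.7 and 75.9 FPKM in the vehicle rats, and between 45.1 and 76.5 FPKM in the olanzapine rats. That of 4 platelet markers, nearly all of it Pf4, lay between 22.4 and 45.0 FPKM and between 46.6 and 75.0 FPKM. The other platelet markers, Gp1bb, Gp9 and Itga2b, were below the filter and went the other way. Their means were 1.43, 0.714 and 0.503 FPKM in the vehicle rats, against 0.271, 0 and 0.252 FPKM in the olanzapine rats. The sum of 5 leukocyte markers lay between 9.04 and 20.2 FPKM and between 12.0 and 16.6 FPKM. The part of these cells in the Atp2a3 values was not tested. The locus shares bases with Itgae, at 1.44 ± 0.452 FPKM in the vehicle rats, against 0.938 ± 0.270 FPKM in the olanzapine rats (SD, n = 3 each).

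The summed level of the pumps was 7753, 9369 and 6681 FPKM in vehicle rats 3, 9 and 11 and 8674, 9576 and 6960.2 FPKM in olanzapine rats 4, 10 and 12. The groups overlapped (exact permutation test of the log2 sums, two-sided, p = 0.7). The makeup of that sum differed more than its size. Atp2a2 held 12.0%, 7.38% and 11.4% of the pump FPKM in the vehicle rats, against 2.42%, 0.601% and 1.13% in the olanzapine rats. The level of Atp2a2 relative to Atp2a1 was 13.6%, 7.97% and 12.8% in the vehicle rats and 2.49%, 0.605% and 1.14% in the olanzapine rats, a log2 difference of -3.22 (exact permutation test, two-sided, p = 0.1). With 3 rats against 3 no p below 0.1 is possible, and Benjamini-Hochberg adjustment over the 7 ratios of inhibitor to pump, Casq2 to Casq1 and Atp2a2 to Atp2a1 raised 0.1 to 0.117.

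Sln (ENSRNOG00000009047, chr8:57012680-57016928) encodes sarcolipin, a small inhibitor that also uncouples ATP use by the pump from calcium transport. It measured 165, 227 and 109 FPKM in vehicle rats 3, 9 and 11, against 44.2, 21.1 and 36.2 FPKM in olanzapine rats 4, 10 and 12. The olanzapine rats all lay below the vehicle rats, with means of 167 ± 59.1 and 33.8 ± 11.7 FPKM (SD, n = 3 each). The difference was -2.27 on the log2 scale (standard error 0.33, limma, adjusted p = 0.0306). Leaving out vehicle rat 3, vehicle rat 9, olanzapine rat 10 or olanzapine rat 12 ended its call, as did analyses with median-ratio size factors and where low values were not filtered (adjusted p = 0.0516 to 0.154 in these limma fits).

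Pln (ENSRNOG00000000413, chr20:36390885-36398875) encodes phospholamban, the inhibitor whose phosphorylation releases SERCA2 in heart. It was a low transcript, at 7.80, 7.11 and 4.52 FPKM in vehicle rats 3, 9 and 11 and 11.2, 12.7 and 10.3 FPKM in olanzapine rats 4, 10 and 12. All olanzapine rats exceeded all vehicle rats, opposite to Sln and Atp2a2, and the difference did not pass the test. Its log2 fold change of 0.75 had a standard error of 0.21 and a 95% interval from 0.27 to 1.24 (limma, adjusted p = 0.216). The Pln locus lies within that of Cep85l, and use of strand in counting was not stated. Cep85l was at 4.20, 4.72 and 2.93 FPKM in the vehicle rats, against 6.92, 3.99 and 7.32 FPKM in the olanzapine rats, with overlap between the groups (log2 fold change 0.50, limma adjusted p = 0.424). The part of Cep85l reads in the Pln values was not tested.

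**Figure D2:**
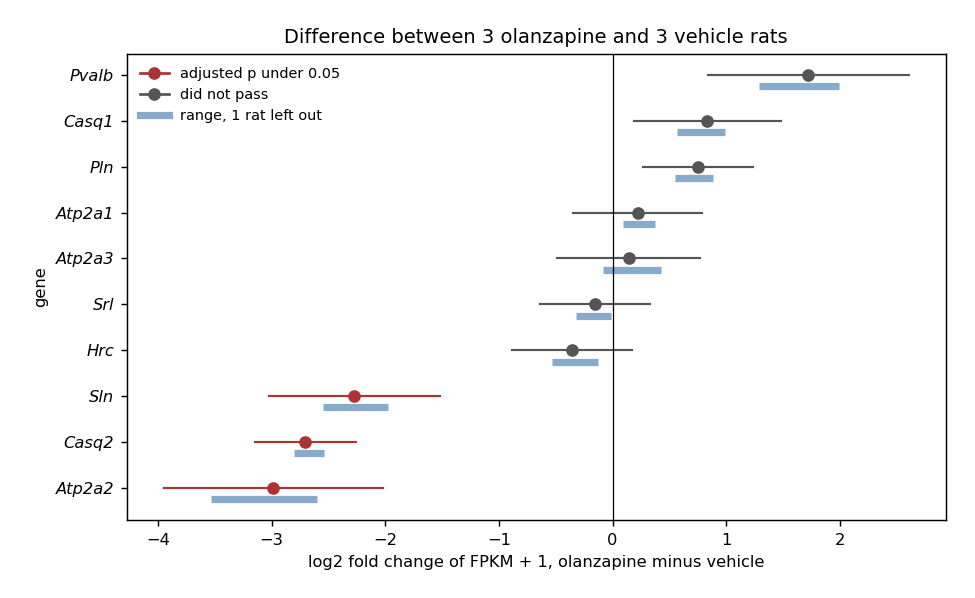
Log2 fold change of each of the 10 genes (points), with its 95% interval from limma (thin lines) and the range of values with 1 rat left out (blue bars). Atp2a2, Casq2 and Sln, in red, passed at an adjusted p of 0.05, and of the other blue bars only that of Atp2a3 crosses 0.

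Relative to the fast pump the inhibitors differed between the groups in opposite directions. Sln was at 2.42%, 2.62% and 1.85% of the Atp2a1 level in vehicle rats 3, 9 and 11 and at 0.522%, 0.221% and 0.526% in olanzapine rats 4, 10 and 12. The groups did not overlap, and the log2 difference was -2.53 (exact permutation test, two-sided, p = 0.1). Pln was at 0.114%, 0.0820% and 0.0763% of the Atp2a1 level in the vehicle rats and at 0.132%, 0.133% and 0.150% in the olanzapine rats, a log2 difference of 0.63 (exact permutation test, p = 0.1).

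Relative to the slow pump both inhibitors had higher values in the olanzapine group, and the groups were apart for Pln only. Pln was at 0.840%, 1.03% and 0.595% of the Atp2a2 level in the vehicle rats and at 5.33%, 22.0% and 13.1% in the olanzapine rats. The groups did not overlap, with a log2 difference of 3.85 (exact permutation test, p = 0.1). This ratio could not overlap, since Pln was higher and Atp2a2 lower without overlap. Sln was at 17.8%, 32.9% and 14.4% of the Atp2a2 level in the vehicle rats and at 21.0%, 36.6% and 46.2% in the olanzapine rats. Here the groups overlapped, with a log2 difference of 0.69 (exact permutation test, p = 0.2).

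Sln and Pln together made up 2.23%, 2.50% and 1.70% of the level of all pumps in the vehicle rats and 0.638%, 0.352% and 0.668% in the olanzapine rats. The log2 difference was -2.0 (exact permutation test, p = 0.1). Sln carried most of that sum in every rat. Pln held 4.51%, 3.03% and 3.97% of the inhibitor FPKM in the vehicle rats, against 20.2%, 37.5% and 22.1% in the olanzapine rats.

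**Figure D3:**
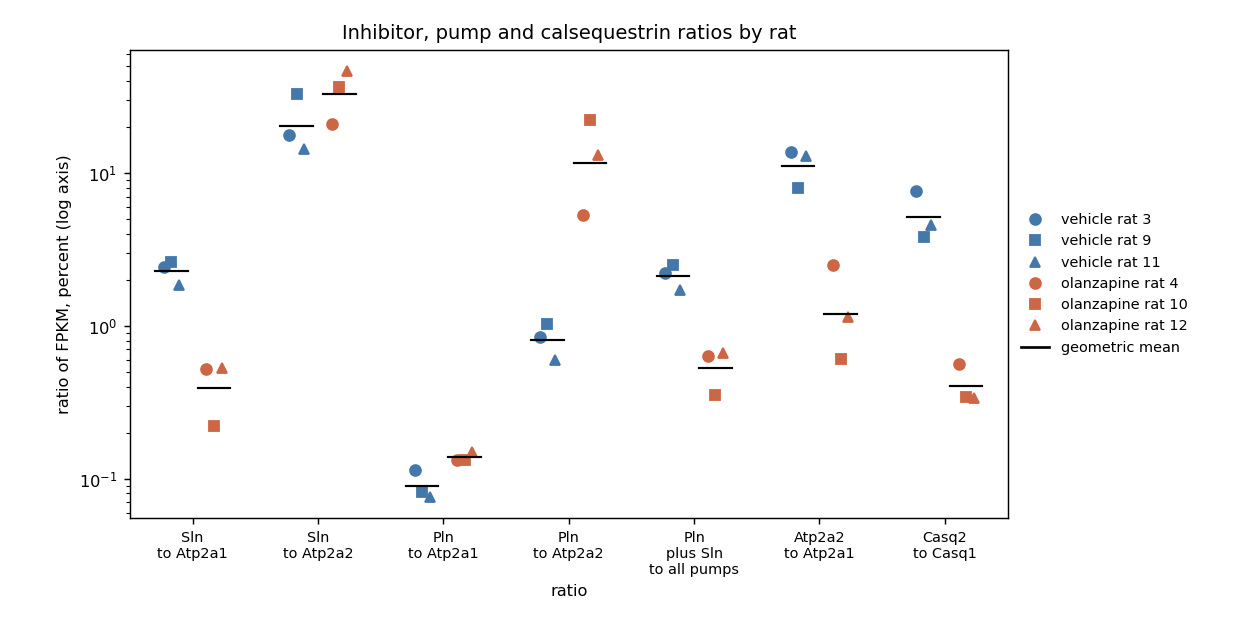
Ratios of FPKM in percent on a log axis for each rat, vehicle in blue and olanzapine in orange, with a bar at the geometric mean of the group. Of the 7 ratios, Sln to Atp2a2 alone has overlapping groups; Pln to Atp2a2 runs from 0.595% to 1.03% in the vehicle rats and from 5.33% to 22.0% in the olanzapine rats.

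Casq2 (ENSRNOG00000016243, chr2:223945610-224001892) encodes calsequestrin 2, found in heart and slow fibers. It measured 67.0, 56.4 and 71.4 FPKM in vehicle rats 3, 9 and 11, against 10.6, 9.90 and 7.06 FPKM in olanzapine rats 4, 10 and 12. The groups lay far apart and the spread within each was small, with means of 64.9 ± 7.73 and 9.19 ± 1.88 FPKM (SD, n = 3 each). Its log2 fold change of -2.70 had a standard error of 0.20 and a 95% interval from -3.15 to -2.26 (limma, adjusted p = 0.00137). It passed in all 6 fits with a rat left out and all 7 other settings, with adjusted p between 0.000215 and 0.00494.

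Casq1 (ENSRNOG00000006930, chr13:95113785-95123307) encodes calsequestrin 1, which is at a higher level in fast fibers. It measured 874, 1479.8 and 1568 FPKM in vehicle rats 3, 9 and 11, against 1898, 2899 and 2087.5 FPKM in olanzapine rats 4, 10 and 12. All olanzapine rats exceeded all vehicle rats, and vehicle rat 3 was the lowest. Its log2 fold change of 0.83 had a standard error of 0.28 (limma, adjusted p = 0.282) and was 0.57 without vehicle rat 3. The level of Casq2 relative to Casq1 was 7.66%, 3.81% and 4.56% in the vehicle rats and 0.560%, 0.341% and 0.338% in the olanzapine rats, a log2 difference of -3.67 (exact permutation test, two-sided, p = 0.1). With Casq2 lower and Casq1 higher without overlap, this ratio could not overlap. Both calsequestrins together summed to 941, 1536 and 1639 FPKM in the vehicle rats, against 1909, 2909 and 2094.5 FPKM in the olanzapine rats (exact permutation test, p = 0.1).

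The sequence before the start of 8 of the 10 genes was taken from RefSeq (build GRCr8), as 250 bases on the strand of the gene. An E-box, CANNTG on either strand, the letters bound by myogenic factors of the MyoD family, occurred in 6 of the 8, as in 65.5% of all 33469 promoters. A MEF2 site occurred in Casq2 alone, 149 to 140 bases before the start, and in 2.96% of all promoters. The letters of MCAT (CATTCC), the TATA box (TATAAA), the NFAT core (GGAAA) and the CArG box were not in these 8 windows, against 12.1%, 12.9%, 56.9% and 1.5% of all promoters. The GC content was 80.0% in Atp2a2 and 72.4% in Atp2a3, and it was 44.0% to 62.8% in the other 6, with a median of 51.2% over all promoters. Shown here are both calsequestrins, since 1 fell and the other did not, with Atp2a2, which fell, and Pln, which did not. Capitals mark E-boxes and, in Casq2, also the MEF2 site as the first run of capitals. The windows are chr2:192214306-192214555 (plus strand) for Casq2, chr13:87212711-87212960 (minus strand) for Casq1, chr12:39733269-39733518 (plus strand) for Atp2a2 and chr20:33172244-33172493 (plus strand) for Pln.
Casq2: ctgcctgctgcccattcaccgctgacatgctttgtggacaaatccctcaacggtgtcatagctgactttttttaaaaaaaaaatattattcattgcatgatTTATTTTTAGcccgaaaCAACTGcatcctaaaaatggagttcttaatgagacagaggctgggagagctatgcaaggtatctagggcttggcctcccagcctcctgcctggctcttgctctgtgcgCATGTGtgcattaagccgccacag
Casq1: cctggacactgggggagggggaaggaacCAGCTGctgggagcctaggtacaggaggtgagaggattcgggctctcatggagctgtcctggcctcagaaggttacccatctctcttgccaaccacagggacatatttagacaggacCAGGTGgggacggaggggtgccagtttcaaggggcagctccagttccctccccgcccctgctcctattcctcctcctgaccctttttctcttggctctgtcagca
Atp2a2: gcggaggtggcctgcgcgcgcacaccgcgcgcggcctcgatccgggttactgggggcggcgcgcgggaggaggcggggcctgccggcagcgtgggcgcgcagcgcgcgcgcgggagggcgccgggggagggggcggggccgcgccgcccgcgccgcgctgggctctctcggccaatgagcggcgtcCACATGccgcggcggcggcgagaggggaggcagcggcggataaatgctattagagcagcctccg
Pln: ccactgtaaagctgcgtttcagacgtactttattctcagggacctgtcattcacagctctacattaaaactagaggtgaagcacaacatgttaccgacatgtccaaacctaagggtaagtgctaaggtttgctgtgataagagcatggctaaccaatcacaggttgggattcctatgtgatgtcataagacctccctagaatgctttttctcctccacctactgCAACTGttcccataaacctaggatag

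Hrc (ENSRNOG00000020719, chr1:102388221-102391945) encodes the histidine-rich calcium binding protein of the lumen. It was at 234, 279 and 289.8 FPKM in the vehicle rats, against 223, 265 and 152 FPKM in the olanzapine rats. Olanzapine rat 12 was the lowest and the groups overlapped (log2 fold change -0.36, 95% interval -0.89 to 0.17, limma adjusted p = 0.513). Srl (ENSRNOG00000005269, chr10:10002598-10045904) encodes sarcalumenin, a lumenal calcium binding glycoprotein. It was at 279.9, 339 and 364 FPKM in the vehicle rats, against 283, 368 and 241 FPKM in the olanzapine rats, with overlap and a log2 fold change of -0.15 (95% interval -0.64 to 0.33, limma adjusted p = 0.759). The value of Srl was 0.022 with median-ratio size factors. Neither interval reaches the log2 fold change of Casq2.

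Pvalb (ENSRNOG00000006471, chr7:119419895-119435231) encodes parvalbumin. It measured 900.2, 2049 and 2386 FPKM in vehicle rats 3, 9 and 11, against 4577, 7482 and 4645 FPKM in olanzapine rats 4, 10 and 12. The lowest olanzapine rat lay well above the highest vehicle rat, and the spread within each group was wide. On the log2 scale the difference was 1.72 with a 95% interval from 0.84 to 2.61 and did not pass the test (limma, adjusted p = 0.132). Without vehicle rat 3 it was 1.29. The level of Pvalb relative to the pumps, a ratio chosen after the values were seen, was 11.6%, 21.9% and 35.7% in the vehicle rats and 52.8%, 78.1% and 66.7% in the olanzapine rats. The groups did not overlap (log2 difference 1.64, exact permutation test, p = 0.1, adjusted p = 0.275 over 11 ratios chosen in this way). The later ratios to slow fiber markers other than Myh7 and to their sum were not part of this adjustment.

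In the vehicle rats the order of mean levels was Atp2a1, Pvalb, Casq1, Atp2a2, Srl, Hrc, Sln, Casq2, Pln and Atp2a3. The neighbors Pvalb and Casq1, Casq1 and Atp2a2, and Srl and Hrc overlapped in their ranges over the 3 rats, and the other neighbors did not. In the olanzapine rats Atp2a2 stood below Srl and Hrc, and Casq2 stood below Pln. There the ranges overlapped between Atp2a1 and Pvalb, Srl and Hrc, Hrc and Atp2a2, and Pln and Casq2. The 10 genes together summed to 10281, 13806 and 11474 FPKM in vehicle rats 3, 9 and 11 and to 15721, 20634 and 14138 FPKM in olanzapine rats 4, 10 and 12, higher without overlap (exact permutation test, p = 0.1). This sum includes Pvalb and Casq1, which were higher without overlap and did not pass, whereas the summed pumps overlapped. A sum without Pvalb was not tested. As a share of the library the 10 genes held 0.972%, 1.46% and 1.11% of all FPKM in vehicle rats 3, 9 and 11 and 1.55%, 2.17% and 1.2% in olanzapine rats 4, 10 and 12, with overlap (exact permutation test, p = 0.2).

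The 3 genes that fell and Pln were set against the slow fiber markers, first against Myh7, the slow myosin heavy chain and the marker with the lowest log2 fold change of the 8 (-3.22, where their median was -2.45). These ratios were chosen after the values were seen. Atp2a2 was at 129%, 129% and 108% of the Myh7 level in vehicle rats 3, 9 and 11 and at 121%, 188% and 129% in olanzapine rats 4, 10 and 12 (log2 difference 0.24, exact permutation test, two-sided, p = 0.4). Casq2 was at 9.27%, 10.5% and 10.2% of it in the vehicle rats and at 6.13%, 32.4% and 11.7% in the olanzapine rats (log2 difference 0.41, exact permutation test, p = 0.7). Sln was at 22.8%, 42.5% and 15.6% in the vehicle rats and at 25.5%, 68.8% and 59.8% in the olanzapine rats (log2 difference 0.93, exact permutation test, p = 0.2). Pln was at 1.08%, 1.33% and 0.643% in the vehicle rats and at 6.46%, 41.4% and 17% in the olanzapine rats (log2 difference 4.09, exact permutation test, p = 0.1). The groups had to stand apart here, since Pln was higher and Myh7 lower without overlap.

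The outcome for Atp2a2 depended on the marker. Over all 8 slow fiber markers its log2 difference ran from -0.72 to 0.24 and was below 0 for 7 of them, and its ratios to Tnni1, Tnnc1, Tpm3 and Myoz2 were lower in the olanzapine rats without overlap (exact permutation test, p = 0.1 each). Casq2 overlapped between the groups against all 8 markers, with log2 differences from -0.55 to 0.41, and so did Sln, from -0.026 to 0.93. Pln was higher without overlap against all 8, with log2 differences from 3.13 to 4.09. That outcome was fixed beforehand, since Pln was higher and each of the 8 markers lower without overlap. The same holds for their sum. These ratios share 1 numerator and include the fall of the markers. Pln itself had a log2 fold change of 0.75 that did not pass (limma, adjusted p = 0.216). Against the sum of the 8 markers the log2 differences were -0.57 for Atp2a2, -0.40 for Casq2 and 0.12 for Sln, all with overlap (exact permutation test, p = 0.2, 0.4 and 0.7), and 3.28 for Pln, without overlap (exact permutation test, p = 0.1).

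**Figure D4:**
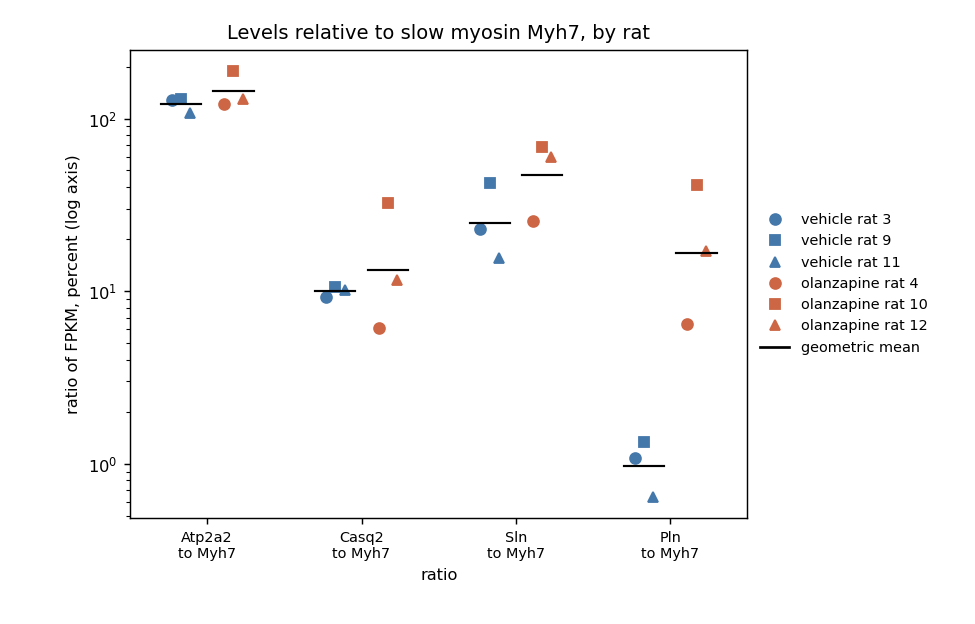
FPKM of Atp2a2, Casq2, Sln and Pln as a percentage of that of Myh7 in each rat on a log axis, with a bar at the geometric mean of the group. The groups overlap for Atp2a2, Casq2 and Sln, whereas Pln runs from 0.643% to 1.33% in the vehicle rats and from 6.46% to 41.4% in the olanzapine rats.

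The fast members were also set against Myh4, the myosin heavy chain of IIb fibers. Pvalb was at 212%, 87.5% and 110.0% of the Myh4 level in the vehicle rats and at 140.4%, 216% and 205% in the olanzapine rats, with overlap (log2 difference 0.54, exact permutation test, p = 0.3). Casq1 and Atp2a1 overlapped in the same ratio (log2 differences -0.36 and -0.97, exact permutation test, p = 0.8 and 0.3). Vehicle rat 3 had 425 FPKM of Myh4 against 2168 to 2341 FPKM in the other vehicle rats, and its ratios of Casq1 and Atp2a1 to Myh4 were the highest of the 6 rats.

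Atp2a2, Casq2 and Pln are also genes of the heart, and cardiac markers were low in these libraries. Nppa, the atrial natriuretic peptide, was listed at 0 in all rats, as was the collagen gene Col1a2, so that a listed 0 is not read here as a low level. Ryr2, the cardiac calcium release channel, did not exceed 0.0151 FPKM, and Tnni3, cardiac troponin I, did not exceed 1.04 FPKM. The summed level of 6 heart markers was 12.9 to 16.9 FPKM in the vehicle rats, against 1.44 to 9.88 FPKM in the olanzapine rats. Among them Myh6, also known from some skeletal fibers, was at 14.9, 11.9 and 6.84 FPKM in the vehicle rats, against 7.24, 0.372 and 0.531 FPKM in the olanzapine rats, with overlap. Smooth muscle, fibroblast and Schwann cell markers overlapped between the groups in summed level. Adipocyte markers summed to 36.0 FPKM in vehicle rat 9 and 57.7 FPKM in olanzapine rat 4, and to between 1.23 and 3.11 FPKM in the other rats. Of the 36 markers of cell types other than muscle fibers 21 were tested and none passed.

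Further genes of calcium transport and binding were taken from a list of 56, grouped by role and chosen with earlier results of these data known. Of the 52 with a row, 46 passed the filter and none passed the test in limma or in any of its alternatives. At an unadjusted p under 0.05 limma gave 1 that was higher and 6 that were lower, where all tested genes gave 3.79% and 9.45%. A Poisson likelihood ratio test on the summed FPKM, which has no term for the spread between rats, gave 6 higher and 10 lower of 51, against 8.74% of all genes in either direction. Their median log2 fold change was -0.19.

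Mitochondria also take up calcium, through the uniporter. Its pore Mcu measured 17.7, 9.98 and 14.6 FPKM in vehicle rats 3, 9 and 11, against 9.16, 8.25 and 5.63 FPKM in olanzapine rats 4, 10 and 12 (log2 fold change -0.79, limma adjusted p = 0.250). The groups did not overlap, and the difference did not pass the test. Smdt1, an essential subunit of the uniporter and the most abundant of this role, was at 384 ± 52 FPKM in the vehicle rats, against 485 ± 110 FPKM in the olanzapine rats.

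Among calcium binding proteins of the general endoplasmic reticulum, the lectin chaperone Canx, the chaperones Hspa5 and Hsp90b1 and the EF-hand protein Calu had the lower values at an unadjusted p under 0.05, with log2 fold changes of -0.40, -0.66, -0.65 and -0.61 (limma, adjusted p = 0.209 to 0.369). Calr, calreticulin and the most abundant of that role, had a log2 fold change of 0.01. In the cytosol Calm3, one of the genes for calmodulin, was at 202, 222 and 157 FPKM in the vehicle rats, against 322, 329 and 377 FPKM in the olanzapine rats. The groups did not overlap, and the log2 fold change of 0.83 did not pass (limma, adjusted p = 0.139). Mcu, Canx, Hspa5, Hsp90b1, Calu and Trdn (below Jsrp1 in level) were named after their values were seen.

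The most abundant gene of each other role had groups that overlapped. Ppp1ca, a catalytic subunit of the phosphatase that acts on phospholamban, had a log2 fold change of 0.44, Atp2c1, the calcium pump of the Golgi, -0.20, and Jsrp1, a protein of the junctional reticulum, 0.28 (limma, adjusted p = 0.418, 0.713 and 0.587). Trdn, triadin, which anchors calsequestrin at the release channel, was at 369.9, 233 and 322 FPKM in the vehicle rats, against 292, 283 and 234 FPKM in the olanzapine rats.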

How the data were processed

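Per the labels and the methods of the study, gastrocnemius RNA was made into TruSeq libraries and sequenced as single reads of 50 cycles on an Illumina HiSeq, and the authors called bases with CASAVA 1.8.2, aligned reads to the Rn5 genome with TopHat2 2.0.9 and estimated FPKM from uniquely mapped reads with Cufflinks 2.2.1. The deposited FPKM values, 1 column for each rat, were used as they stood, and 7 further columns with the authors' own means, errors, fold changes and p-values were not used. No fragment counts were used here, and the Poisson test named below, a count model run on FPKM, serves only as an alternative. Groups were compared in limma 3.58.1 (R 4.3.3) with a variance trend on log2(FPKM + 1), over genes whose mean reached 1 FPKM, and ratios by exact two-sided permutation tests of log2 values. Errors are SD over 3 rats, and intervals are 95% for each gene alone, without adjustment for the number of genes tested.

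The members, ratios and gene lists were chosen with earlier results of these data known. All 10 members are named, and of each role in the list of further calcium genes the one with the highest mean level and any that passed the test. Markers are given by counts and summed level. Alternatives were pseudocounts of 0.1 and 10, no filter or a filter at 10 FPKM, median-ratio size factors, an equal total for each rat, no variance trend, each rat left out, and a Poisson likelihood ratio test on summed FPKM, close to the kind of test the authors used. Promoters came from RefSeq by gene symbol and were searched for exact motif letters. The sequences are of another build than the FPKM loci. A single result among the further calcium genes is not reported here.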

Additional observations from a re-analysis of the deposited data

How the results depend on the processing

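Of all genes, 52 passed in limma. The count was 27 with no filter, 31 with median-ratio size factors, 14 to 62 with 1 rat left out (lowest without olanzapine rat 12, and 17, 24, 28 and 20 without vehicle rat 3, vehicle rat 9, olanzapine rat 10 and vehicle rat 11) and 1458 by the Poisson test at an unadjusted p under 0.05. Of the 10 genes of calcium reuptake and storage, 3 passed, against 1 with no filter and 1 to 3 with 1 rat left out. The Poisson test gave 8 of them, and 16 of 51 further calcium genes in place of 0, against 8.74% of all 16681 genes. It has no term for the spread between rats, and its 8 genes include Atp2a1, whose groups overlapped. With no filter Atp2a2 (-2.99) and Sln (-2.27) kept their log2 fold change at an adjusted p of 0.0874 in limma, and with size factors Sln had -2.10 at 0.0695. With 1 rat left out Atp2a2 ranged from -3.53 to -2.60, with adjusted p from 0.00157 to 0.164 in limma, and Sln from -2.55 to -1.98, with adjusted p from 0.0295 to 0.154. The log2 fold change of Atp2a3 ranged from -0.082, without olanzapine rat 4, to 0.43 with 1 rat left out. The log2 fold change of Srl was 0.022 with median-ratio size factors. The cause of these changes was not tested. Fits with 1 rat left out have fewer rats, and the fit with no filter tests more genes. No other member changed direction or call in limma, and the 7 ratios kept their direction under the alternatives run for them. A filter at 10 FPKM left Pln and Atp2a3 untested. No paired analysis was possible because the labels give the groups no shared replicate number and no other pairing. With 3 rats a group, the interval of each gene that did not pass gives the range of differences these data leave possible. Ratios to slow fiber markers other than Myh7 were added after seeing the data, and their p-values were not adjusted. Those of Atp2a2 changed with the marker.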
